A study of Nematostella vectensis with 33 samples.

Results

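The genes described here are 156 of the 22111 genes measured in an NF-kB and STAT knockdown experiment in the starlet sea anemone Nematostella vectensis, a cnidarian, at the embryo stage. They had lower transcript levels with short hairpin RNAs (shRNAs) against NF-kB than with a control shRNA against GFP, and their mean response to the cyclic dinucleotide 2'3'-cGAMP, averaged over embryos with GFP and STING shRNAs, lay within set bounds. The genes were chosen by these measured values, and a gene was taken when all 4 NF-kB shRNA libraries lay below all 3 GFP shRNA libraries, when the difference of the group means on the log2(normalised count + 1) scale was at most -0.8, and when each GFP shRNA library held at least 30 normalised counts. In a second embryo experiment, with shRNAs against GFP or STING, its mean difference between 2'3'-cGAMP-treated and untreated embryos had to lie between -0.8 and 0.5. The NF-kB criteria alone were met by 455 genes. Of these, 267 had an embryo response above 0.5, 32 lay below -0.8, and the remaining 156 are the genes described here, called NF-kB-supported genes. The name states a lower level with the NF-kB shRNAs and nothing about direct control.

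NF-kB proteins are transcription factors that inhibitors of the IkB family hold in the cytoplasm until a signal releases them to the nucleus. STING is the receptor that binds 2'3'-cGAMP, and in mammals it signals to NF-kB as well as to the interferon system, in which STAT factors act. In Nematostella embryos NF-kB is also known to be needed for the development of cnidocytes, the stinging cells, so the factor has a role there besides immune signalling.

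Polyadenylated RNA was sequenced in 33 libraries. In the NF-kB and STAT experiment, microinjected embryos carried a GFP shRNA (3 libraries), NFkB shRNA 1, NFkB shRNA 2, STAT shRNA 1 or STAT shRNA 2 (2 libraries each), and all of them had 2'3'-cGAMP at 100 µM for 4 h, so the NF-kB difference was measured only in treated embryos. In the STING experiment, embryos carried a GFP shRNA, STING shRNA 1 or STING shRNA 2, each untreated or with the same treatment (2 libraries per group). Whole polyps were untreated or were given 500 µM of 2'3'-cGAMP, 3'3'-cGAMP, c-di-AMP or c-di-GMP for 24 h (2 libraries per group), with no shRNA. The labels give no strain, age or stage. The polyps differed from the embryos in dose, time, RNA extraction and library kit, so each difference is taken within an experiment. Embryo levels and differences are set beside polyp differences only as a description over genes.

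The deposited totals were 17.5 to 20.6 M normalised counts per library (M, mega) for the NF-kB and STAT shRNA embryos with their controls, and 20.5 to 29.3 M in the STING experiment. In polyps they were 9.56 to 10.5 M in 8 libraries, while those given 2'3'-cGAMP had 22.3 and 22.4 M. The library NFkB shRNA 2 replicate 1 had 14.0% of all genes at 0, against 4.49% to 10.9% in the other libraries of its experiment. In the STING experiment, the first untreated GFP shRNA library had 21.6% and the GFP shRNA library with 2'3'-cGAMP numbered 4 had 14.4%, against 3.99% to 11.3% elsewhere. Which identifiers stand for NF-kB, STAT and STING is not known from the tables, so how far the shRNAs depleted their targets was not analysed here.

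Of the 156 genes, 133 had an entry in the reference (RefSeq, assembly jaNemVect1.1). All 133 were protein coding and all carried a placeholder symbol with the prefix LOC and no description. The other 23 are given by their NCBI Gene number. No function is therefore assigned to any of these genes, and markers of cnidocytes, neurons, muscle or gland cells could not be counted among them. All libraries were made from whole embryos or polyps, so fewer cells of a type and less RNA per cell cannot be told apart in any of the differences below. Their part in the results was not tested.

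With the NF-kB shRNAs, the median difference from the GFP shRNA over the 156 genes was -1.08 on the log2 scale, and the values ran from -0.81 to -3.94. These values chose the genes and are given as a description. The mean level of a gene had a median of 139 normalised counts with the GFP shRNA and 62.7 with the NF-kB shRNAs. The difference was at most -2 in 16 genes, at most -1.5 in 30 and at most -1 in 94. Over all 20058 tested genes the median difference was -0.04. The separation that the rule asks for, with all NF-kB libraries below all GFP libraries, was met by 6.53% of the tested genes, and the opposite separation by 6.27%.

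The mean of log2 values over the 156 genes was 7.32, 7.52 and 7.64 in the GFP shRNA libraries. It was 6.23 and 6.30 with NFkB shRNA 1, and 5.74 and 6.54 with NFkB shRNA 2. The STAT shRNA 1 libraries lay between, at 7.08 and 6.97. STAT shRNA 2 had 7.03, also between, and 7.34, just above the lowest GFP shRNA library at 7.32.

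**Figure D1:**
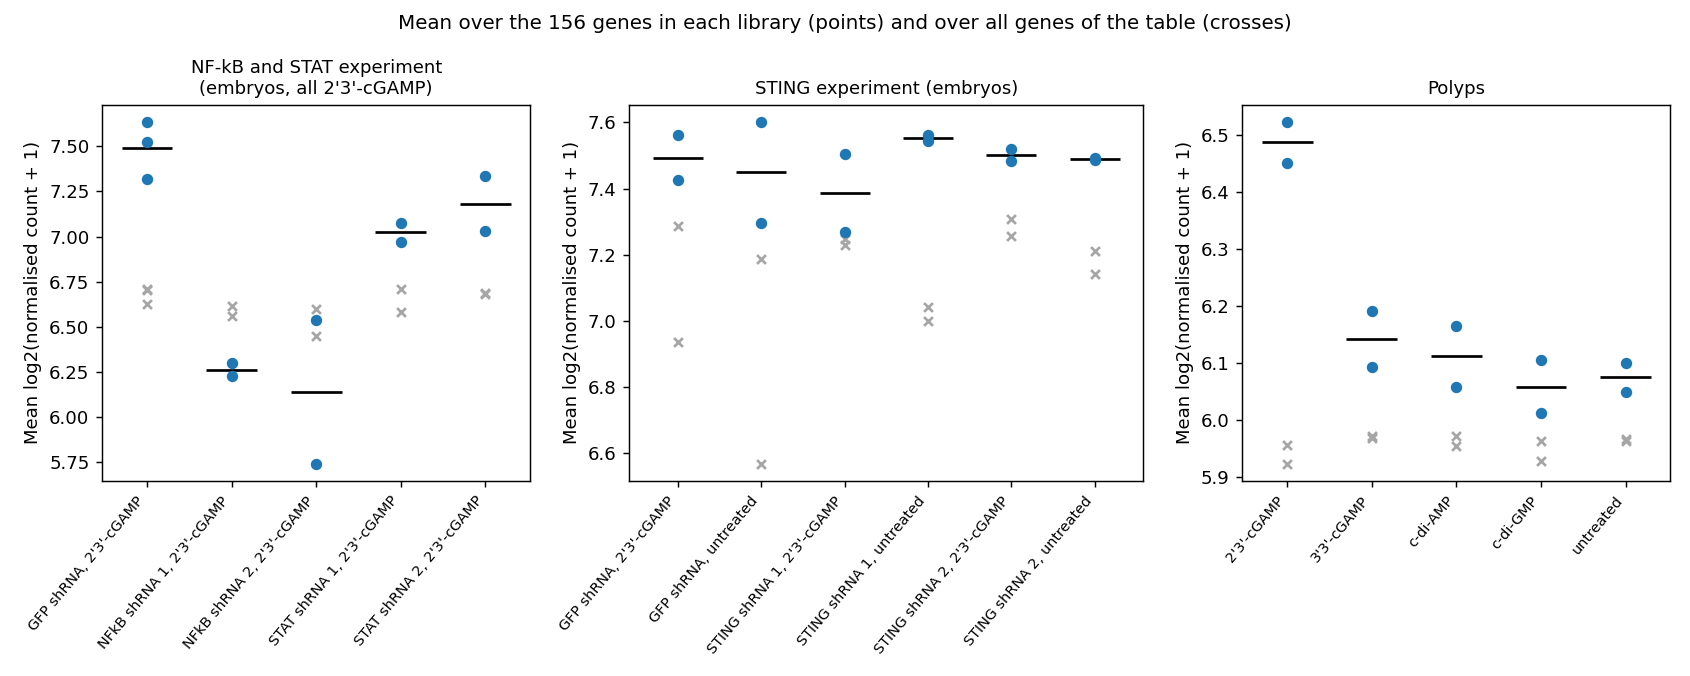
Mean log2(normalised count + 1) over the 156 NF-kB-supported genes in each library (points, with the group mean as a line) and over all genes of the table (crosses), in 3 panels with separate axes that do not start at 0. The NF-kB libraries, at 5.74 to 6.54, lie below the GFP libraries, at 7.32 to 7.64, by the choice of genes, and the 2'3'-cGAMP polyps, at 6.45 and 6.52, lie above the other polyp libraries, at 6.01 to 6.19.

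Most of the 15 genes with the most negative differences had low levels. Apart from LOC5520906 (185) and LOC116620133 (1726), their GFP shRNA means lay below the median of 139 normalised counts over the 156 genes. Over all tested genes that median was 163. NCBI Gene 5500301 had 60.9, 98.9 and 96.6 normalised counts with the GFP shRNA, 5.91 and 16.7 with NFkB shRNA 1 and 0 and 6.46 with NFkB shRNA 2, a difference of -3.94. LOC116620691 had 77.9, 96.5 and 129 with the GFP shRNA, 25.7 and 21.8 with NFkB shRNA 1 and 0 and 5.18 with NFkB shRNA 2, a difference of -3.68. Lower values with both hairpins and groups that do not overlap are what the rule requires of every gene, so they are no separate result for these genes.

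Among the genes with a mean of at least 300 normalised counts with the GFP shRNA, LOC116620133 had the most negative difference. It had 811, 2061 and 2306 normalised counts with the GFP shRNA, 330 and 311 with NFkB shRNA 1 and 328 and 462 with NFkB shRNA 2, a difference of -2.15. All NF-kB libraries lay close together, while the first GFP library lay well below the other GFP libraries. Of the 8 genes with the most negative differences, LOC5513742 (-2.86) and LOC116603629 (-2.85) were above 0 in all NF-kB libraries, and the others were at 0 in NFkB shRNA 2 replicate 1.

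The order of these genes depended on the library NFkB shRNA 2 replicate 1, in which 10 of the 156 genes were at 0, 8 of them among the 15 most negative. Without that library the difference of NCBI Gene 5500301 was -3.12 and that of LOC116620691 was -2.69. LOC5504707 moved from -2.53 to -1.16 and NCBI Gene 116605630 from -2.07 to -0.85, whereas LOC5513742 (-2.86), LOC116603629 (-2.86) and LOC116620133 (-2.11) hardly moved. Without it, 10 genes had a difference of at most -2, and 129 of the 156 still had one of at most -0.8.

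**Figure D2:**
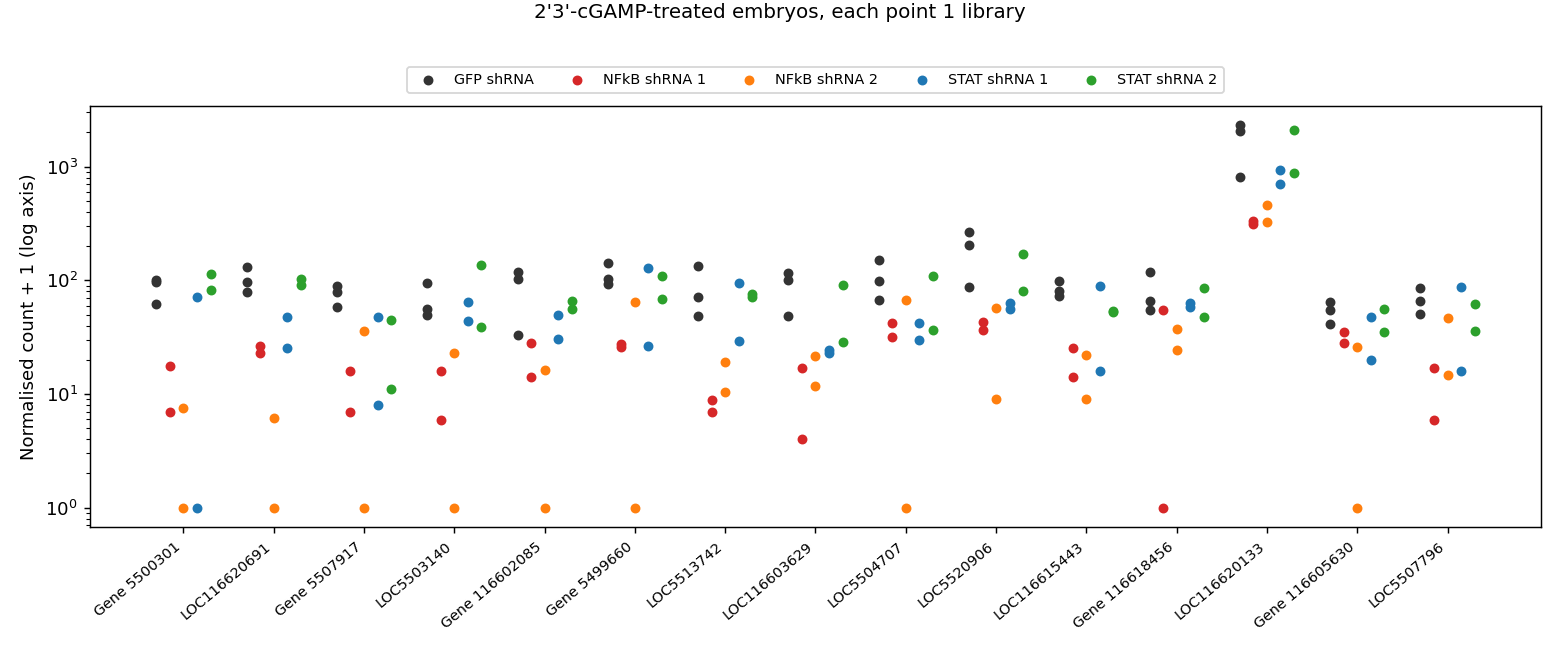
Normalised counts plus 1 (log axis) of the 15 genes with the most negative difference between NF-kB and GFP shRNAs, each point 1 library of 2'3'-cGAMP-treated embryos. In 8 of the 15 genes NFkB shRNA 2 replicate 1 lies at 0, and LOC116620133 stands far above the others in level.

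The 5 genes with the highest level with the GFP shRNA were LOC5505385, LOC5520818, LOC5511901, LOC116603381 and LOC5519398, with means of 4394, 3736, 3600, 3331 and 2691 normalised counts. LOC5520818 had 3038, 4459 and 3711 with the GFP shRNA, and 1206 and 1643 with NFkB shRNA 1 and 1000 and 1798 with NFkB shRNA 2. LOC5511901 had 2397, 3937 and 4465 with the GFP shRNA, and 1327 and 1382 with NFkB shRNA 1 and 1369 and 1611 with NFkB shRNA 2. In both genes each hairpin gave a similar level, and none of these 5 genes was at 0 in any embryo library.

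The rule used the libraries of both hairpins, so their differences from the GFP shRNA are a description. Against the GFP shRNA, the median difference was -1.11 with NFkB shRNA 1 and -1.10 with NFkB shRNA 2. Both hairpins had a mean below the GFP mean in all 156 genes, which the rule fixes, and 89 genes reached -0.8 with each hairpin on its own. In 84 genes the hairpins lay within 0.5 of each other on the log2 scale, in 86 the level was lower with hairpin 2 and in 70 with hairpin 1. The rule set no bound on the difference between the hairpins, although it asked for low values in the libraries of both. In limma, a linear model fitted over all genes, 0 of the 156 genes and 0% of all tested genes differed between the hairpins at an adjusted p below 0.05. At an unadjusted p below 0.05 there were 24 of 156, against 11.6% of all tested genes. The 95% interval of a gene's difference, which is not adjusted for the number of genes, had a median half-width of 0.97. A typical gene thus needed a difference between hairpins larger than that to be called. Without NFkB shRNA 2 replicate 2, 10 of the 156 genes were called different between the hairpins, beside 0.982% of all tested genes, and without NFkB shRNA 1 replicate 1, 1 gene, beside 0.0598%.

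Near the thresholds, LOC5504529 (-0.81) and LOC116604116 (-0.81) were the last genes inside the bound on the NF-kB difference, and LOC5515682 (-0.80) and LOC5514060 (-0.79) were the first outside. For the lowest GFP value, LOC5517408 (30.04) and LOC5519738 (30.2) lay just inside, and NCBI Gene 5499595 (29.8) and LOC5508095 (29.3) just outside. At the upper bound of the embryo response, LOC5502424 (0.49) and LOC116620586 (0.49) lay inside, and LOC5518720 (0.51) and LOC116619080 (0.51) outside. At the lower bound, LOC5516452 (-0.79) and LOC5517479 (-0.75) lay inside, and LOC5519706 (-0.81) and LOC5512595 (-0.83) outside.

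With the STAT shRNAs the 156 genes had a median difference from the GFP shRNA of -0.34, from -1.85 to 0.48, and 131 genes lay below 0. The median over all tested genes was 0.003. All STAT libraries lay below all GFP libraries in 18 genes, against 3.21% of all tested genes, and above them in 1 gene, against 2.88%. These differences share the GFP libraries, which the rule required to be high, and so they are given as values without a test. The STAT mean lay between the NF-kB and GFP means in 122 genes, and in 62 genes all NF-kB libraries lay below all STAT libraries, against 3.73% of all tested genes. The rule required the NF-kB libraries to be low, so nothing is read from these counts either.

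The genes differed in where their STAT libraries lay. LOC116620133 had 706 and 926 normalised counts with STAT shRNA 1 and 879 and 2118 with STAT shRNA 2. LOC5503140, with 54.9, 93.4 and 48.5 with the GFP shRNA, had 42.8 and 63.6 with STAT shRNA 1 and 37.5 and 136 with STAT shRNA 2. NCBI Gene 5507917, with 88.2, 57.8 and 78.4 with the GFP shRNA, had 46.6 and 6.96 with STAT shRNA 1 and 10.1 and 43.4 with STAT shRNA 2. STAT and GFP libraries overlapped in LOC116620133 and LOC5503140, whose mean differences were -0.58 and -0.04, and did not overlap in NCBI Gene 5507917, at -1.85.

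In the STING experiment the mean response to 2'3'-cGAMP over both kinds of shRNA, which the rule used, had a median of -0.004 and ran from -0.79 to 0.49. The rule averaged over libraries, so the GFP shRNA response had less weight in the bound than the STING shRNA response and could vary more. Within a kind the responses spread more widely than the mean. Shares over all tested genes were not counted, and nothing is read from the contrast between the kinds. With the GFP shRNA alone they ran from -3.13 to 3.10, with 38 genes above 0.5 and 12 below -0.8. With the STING shRNAs alone, which have 4 libraries per treatment against 2, they ran from -1.55 to 1.15, with 10 genes above 0.5 and 7 below -0.8. The first untreated GFP shRNA library held 7 of the 156 genes at 0 and the GFP shRNA library with 2'3'-cGAMP numbered 4 held 4, against at most 1 in each other library of that experiment.

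STING shRNAs, averaged over treatments, were compared with the GFP shRNA in limma, and 0 of the 156 genes and 0% of all tested genes had an adjusted p below 0.05. At an unadjusted p below 0.05 there were 22 genes, 8 higher and 14 lower with the STING shRNAs, against 16.3% of all tested genes. The median difference over the 156 genes was -0.04, against 0.09 over all tested genes, and the 95% interval of a gene had a median half-width of 0.77. Without the second untreated GFP shRNA library, 10 of the 156 genes were called, 9 of them higher and 1 lower, beside 6.82% of all tested genes called in either direction.

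LOC5521666 is an extreme case in this comparison and not a typical gene. The lowest adjusted p over the 156 genes was also 0.305 (limma), and their differences ran from -1.37 to 2.59. LOC5521666 had 2121 and 1790 normalised counts in untreated and 4770 and 2496 in treated embryos with the GFP shRNA. With STING shRNA 1 it had 2611 and 903 untreated and 525 and 1489 treated, and with STING shRNA 2 it had 540 and 902 untreated and 1570 and 1204 treated. The GFP libraries were higher than all STING shRNA libraries except the first untreated STING shRNA 1 library, and the difference was -1.28 ± 0.35 (SE, limma, adjusted p = 0.305).

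LOC116620133, described above for its NF-kB difference, stayed between 513 and 903 normalised counts in that experiment. It had 513 and 537 normalised counts in untreated and 903 and 655 in treated embryos with the GFP shRNA. With STING shRNA 1 it had 645 and 714 untreated and 751 and 621 treated, and with STING shRNA 2 it had 563 and 659 untreated and 824 and 720 treated. The ranges with STING and GFP shRNAs overlap, and the difference was 0.10 with a 95% interval from -0.25 to 0.45 (limma, adjusted p = 0.711).

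Whether STING shRNAs changed the response to 2'3'-cGAMP was tested as the difference between the responses. In limma, 0 of the 156 genes and 0% of all tested genes were called, and 2 genes had an unadjusted p below 0.05, against 1.49% of all tested genes. The 95% interval had a median half-width of 1.54, so only large differences in response were detectable. Without the second untreated GFP shRNA library, 3 of the 156 genes were called, beside 3.12% of all tested genes.

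Polyps given 2'3'-cGAMP were not used by the rule. Of the 156 genes, 146 passed the filter of at least 10 normalised counts in at least 2 polyp libraries. A gene could pass through the 2'3'-cGAMP libraries alone, as LOC5503140 did, and it is still counted among the genes called higher. Of these 146, 58 were higher and 22 lower with 2'3'-cGAMP than in untreated polyps (limma, adjusted p below 0.05), whereas with each library scaled to an equal total 22 were higher and 69 lower, beside 11.5% and 61% of all tested genes. As deposited, the shares were 39.7% higher and 15.1% lower, beside 28.5% and 30% of all tested genes. The median difference was 0.49 over the 146 genes and -0.10 over all 18511 tested genes, a distance of 0.59.

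The distance between these medians was 0.47 to 0.64 over the alternatives of scaling, filter, pseudocount, variance model and libraries left out, and 0.55 with equal totals, where the medians were -0.66 and -1.21. The sign of many single changes thus rests on the scaling. Each scaling multiplies a library by a single factor, which moves all genes by nearly the same log2 amount. The distance between the medians could therefore hardly change with the scaling, and no conclusion is drawn from its being similar. Relative to the median of all genes, 55 of the 146 genes (37.7%) lay above it by more than 1, against 25.4% of all tested genes. Another 20 genes (13.7%) lay below it by more than 1, against 25.2%.

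**Figure D3:**
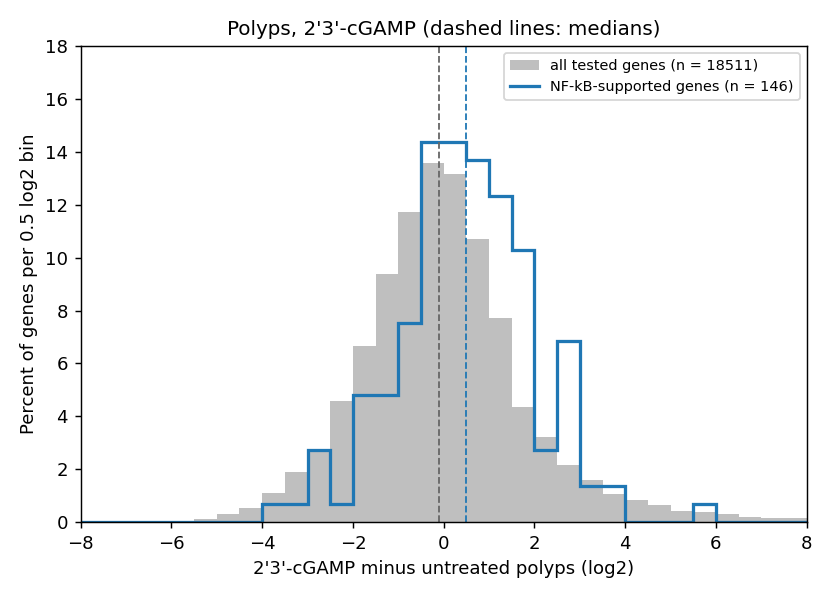
Distribution of the log2 difference between 2'3'-cGAMP-treated and untreated polyps for the 146 tested NF-kB-supported genes (line) and all 18511 tested genes (grey), as a percent of genes per 0.5 log2 bin, with dashed lines at the medians of 0.49 and -0.10. The line lies above the grey area in most bins from -0.5 to 3, and at or below it in most bins outside that range, on both sides. Both extend in both directions.

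The polyp change went with the level of the gene in embryos. Among genes with every GFP shRNA library at 30 or more, those with a mean below 100 normalised counts were higher in 2'3'-cGAMP polyps in 24.5% of the NF-kB-supported genes and 14.0% of all genes. From 100 to below 300 these shares were 33.9% and 21.5%, and from 300 they were 65.9% and 46.6%. The shares lower were 20.4% and 36.2% in the first class, 16.1% and 38.8% in the second and 7.32% and 24.8% in the third. In each class the share higher was larger and the share lower was smaller than over all genes of that class, and these differences between shares were not tested. The genes that met the NF-kB criteria and had a mean embryo response above 0.5 gave 83.1% higher and 1.20% lower in polyps (n = 249). Genes with the mirror pattern, higher with the NF-kB shRNAs and within the same bounds on the embryo response, gave 29.9% and 23.7% (n = 97).

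The largest rises in polyps were those of LOC5503140, NCBI Gene 116602085, LOC5511901, LOC5521666 and NCBI Gene 116606966. LOC5511901 had 256 and 189 normalised counts in untreated and 2610 and 2923 in 2'3'-cGAMP polyps. The difference was 3.64 ± 0.23 (SE, limma, adjusted p = 3.3e-07). LOC5521666 had 727 and 788 in untreated and 6611 and 6395 in treated polyps, a difference of 3.10 ± 0.13 (limma, adjusted p = 1.32e-08). In both genes the treated libraries lay far above all other polyp libraries.

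Low values lay behind the largest differences. LOC5503140 had 2.55 and 0.885 normalised counts in untreated and 85.8 and 197 in treated polyps. The difference of 5.66 ± 1.04 (SE, limma, adjusted p = 0.000902) depends on the pseudocount because the untreated values are close to 0. NCBI Gene 116602085 had 11.9 and 14.2 in untreated and 215 and 224 in treated polyps, a difference of 3.98 ± 0.46 (limma, adjusted p = 3.64e-05). NCBI Gene 116606966 had 60.3 and 71.7 untreated and 567 and 516 treated (difference 3.02 ± 0.19, limma, adjusted p = 3.47e-07).

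LOC116611456 fell most. It had 1155 and 1315 normalised counts in untreated and 78.7 and 106 in 2'3'-cGAMP polyps. The difference was -3.74 ± 0.15 (SE, limma, adjusted p = 1.38e-08), and the treated libraries lay below all other polyp libraries, which held 1155 to 1599. In embryos of the NF-kB and STAT experiment the same gene had 166, 159 and 358 with the GFP shRNA and 69.2, 122, 97.6 and 71.3 with the NF-kB shRNAs. The ranges do not overlap, as the rule requires, and the third GFP library is the highest.

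The other 4 genes with the largest falls had low polyp levels. LOC5517408 had 22.1 and 24.8 normalised counts in untreated and 2.38 and 1.90 in treated polyps (difference -2.96 ± 0.50, limma, adjusted p = 0.000488). LOC5501259 (-3.01, adjusted p = 0.00956 in limma) was not called without the first untreated polyp library (adjusted p = 0.0709). LOC5520516 (-2.63, adjusted p = 0.0154 in limma) was not called without the second untreated library (adjusted p = 0.132) or without the second 2'3'-cGAMP library (adjusted p = 0.0711). LOC116620691 stood at 0 in each 2'3'-cGAMP library and at 4.25 and 4.43 in the untreated ones, and its call (-2.42, adjusted p = 0.0354 in limma) was lost without any of the 4 libraries, with adjusted p from 0.0602 to 0.109.

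**Figure D4:**
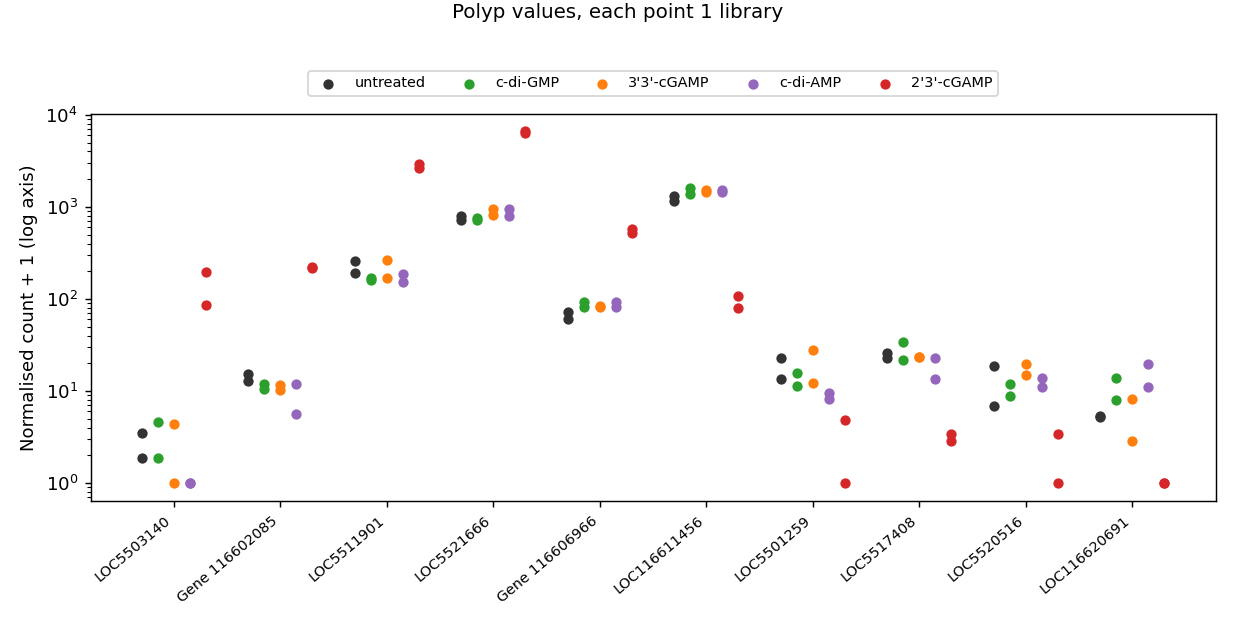
Normalised counts plus 1 (log axis) in polyps of the 5 genes with the largest rise and the 5 with the largest fall with 2'3'-cGAMP among the NF-kB-supported genes, each point 1 library. The 2'3'-cGAMP libraries lie apart from the libraries of the other 3 compounds and the untreated polyps in each of the 10 genes.

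The genes that stood out in the NF-kB experiment behaved in different ways in polyps. LOC116620133 had 68.7 and 77.7 normalised counts untreated and 545 and 478 with 2'3'-cGAMP (difference 2.79 ± 0.24, limma, adjusted p = 3.7e-06). NCBI Gene 5500301 went the other way, with 164 and 164 untreated and 35.8 and 55.0 treated (-1.86 ± 0.26, limma, adjusted p = 0.000144). LOC5513742, with 98.5 and 104 untreated and 100.1 and 87.2 treated, was not called as deposited (-0.11, limma, adjusted p = 0.622) and was called lower with equal totals (-1.25, adjusted p = 0.000165).

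Of the 15 genes with the most negative NF-kB difference, LOC5503140, NCBI Gene 116602085, LOC116603629 (2.89), LOC116620133, NCBI Gene 116605630 (2.54) and LOC5520906 (2.50) rose in polyps under each scaling tried. For LOC5503140 the limit set by the filter, given above, applies. LOC5507796 (1.73, adjusted p = 0.041 in limma) was not called with equal totals (adjusted p = 0.396) nor without any of the 4 libraries (adjusted p from 0.06 to 0.139). NCBI Gene 5507917 had 127 and 40.7 untreated and 365 and 506 treated, and was not called (2.56 ± 1.28, limma, adjusted p = 0.11). LOC5504707, with 226 and 269 untreated and 224 and 228 treated, was not called as deposited (-0.13, limma, adjusted p = 0.503) and was called lower with equal totals (-1.27, adjusted p = 5.48e-05).

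Among the 5 genes with the highest level in embryos, LOC116603381 had 137 and 173 normalised counts in untreated and 501 and 531 in treated polyps (difference 1.74 ± 0.17, limma, adjusted p = 1.25e-05). LOC5505385 had 1430 and 1272 untreated and 3516 and 3356 treated (1.35 ± 0.11, limma, adjusted p = 2.86e-06), but was not called with equal totals (0.19, adjusted p = 0.125). LOC5519398 had 378 and 416 untreated and 641 and 809.8 treated (0.86 ± 0.14, limma, adjusted p = 0.000385), with the sign turned at equal totals (-0.29). LOC5520818, the second highest gene in embryos, had 2553 and 2322 untreated and 2694 and 2617 treated, a difference of 0.13 with a 95% interval from -0.41 to 0.66 (limma, adjusted p = 0.673), and was called lower with equal totals (-1.03, adjusted p = 0.00114).

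Across the 146 genes, the NF-kB difference in embryos and the 2'3'-cGAMP difference in polyps had a Pearson r of -0.13 and a Spearman rho of -0.12. The polyp difference had an r of 0.20 and a rho of 0.24 with the mean embryo response, which the rule bounded. With the STAT difference it had 0.04 and 0.03. These values are a description over genes that share libraries and are not independent.

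The other cyclic dinucleotides were given at the same dose and time. 3'3'-cGAMP is an isomer of 2'3'-cGAMP that differs in the linkage between its nucleotides, and c-di-AMP and c-di-GMP carry the same base on both sides. Against untreated polyps, 0 of the 146 genes were called with 3'3'-cGAMP (background 0.054% of all tested genes), with c-di-AMP (background 0.789%) or with c-di-GMP (background 0%) in limma. At an unadjusted p below 0.05 there were 3, 9 and 8 genes, against 4.32%, 10.2% and 10.1% of all tested genes. The median differences were 0.06, 0.08 and 0.03. The 95% interval of a gene, which is not adjusted for the number of genes, had a median half-width of 0.66. A typical gene thus needed a change larger than that to be called.

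The compounds were also set against each other in 6 direct pairs, with p-values adjusted over all genes within a pair. Set against 3'3'-cGAMP, 60 of the 146 genes were higher and 25 lower in 2'3'-cGAMP polyps (limma), against 28.6% and 29.5% of all tested genes. Against c-di-AMP, 61 were higher and 24 lower, beside 27.8% and 28.2% of all tested genes, and against c-di-GMP 59 were higher and 23 lower, beside 27.6% and 28.4%. These comparisons share the 2'3'-cGAMP libraries and are not separate evidence. With equal totals the splits turned to 19 higher and 71 lower against 3'3'-cGAMP (beside 11.1% and 61% of all tested genes), 20 and 78 against c-di-AMP (10.8% and 61%), and 23 and 70 against c-di-GMP (11.2% and 61.1%).

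Among the other 3 compounds, 0 of the 146 genes differed in limma for 3'3'-cGAMP against c-di-AMP (background 0.0054% of all tested genes), 3'3'-cGAMP against c-di-GMP (0.0756%) or c-di-AMP against c-di-GMP (0.708%). At an unadjusted p below 0.05 there were 5, 8 and 6 genes, against 5.82%, 5.85% and 3.84%, and the median half-width of the interval was again 0.66. Leaving out the first 3'3'-cGAMP library gave 1 called gene in each of the first and the second pair, beside 1.35% and 0.524% of all tested genes. Leaving out the first c-di-GMP library gave 1 in each of the second and the third, beside 0.0648% and 0.513%.

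LOC5511901 illustrates the contrast between the isomers. It had 167 and 266 normalised counts with 3'3'-cGAMP, 151 and 185 with c-di-AMP and 160 and 166 with c-di-GMP, beside 256 and 189 in untreated polyps. Against 2610 and 2923 with 2'3'-cGAMP, the difference from 3'3'-cGAMP was 3.70 with a 95% interval from 3.20 to 4.21 (limma, adjusted p = 3.05e-07). LOC116611456 had 1534 and 1443 with 3'3'-cGAMP, and its difference from that isomer in 2'3'-cGAMP polyps was -4.01 with an interval from -4.35 to -3.67 (limma, adjusted p = 1e-08).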

How the data were processed

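Each of 3 deposited tables holds a signal value per gene and library, named normalized counts by the authors, with NCBI Gene numbers as identifiers. FastQC 0.11.9, kallisto 0.46.1 and DESeq2 are named without a role, per the submitters' processing notes, and the build is not given in the sources used here. Values as deposited are not whole counts, so no count test was run. Genes reaching 10 in 2 or more libraries of a table were put on the log2(value + 1) scale for limma 3.58.1 (R 4.3.3), with all groups of a table in 1 fit, a trend on mean level, hairpins averaged and Benjamini-Hochberg adjustment over all tested genes of a comparison (two-sided, called below 0.05). The script was tested on simulated data. Since the labels do not tie libraries to separate animals or cultures, p-values cover only the spread between these libraries, and the number of libraries limits the precision.

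The genes, lists and tests were chosen with earlier results of these data known, and the 6 direct pairs of compounds were added after seeing the polyp results. Named genes were the 15 with the most negative NF-kB difference, the 5 with the highest GFP shRNA level, up to 5 per direction with the largest called change in a comparison with untreated polyps or GFP shRNA embryos, and those beside each threshold. LOC5521666 in the STING experiment was picked after its values were seen. Lists of pathways and cell type markers were planned as searches of gene descriptions and could not be used because the reference holds no descriptions. No sequence is shown. Alternatives covered pseudocounts of 0.5 and 5, no filter or a mean of at least 50, TMM factors, equal library totals, robust variances, the compared groups alone, a replicate block, single STING hairpins and each library left out.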

Additional observations from a re-analysis of the deposited data

How the results depend on the processing

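The number of genes meeting the rule was 154 and 152 with pseudocounts of 0.5 and 5, 172 with TMM factors and 168 with equal library totals, of which 125 were among the 156. It ran from 146 to 360 when single libraries were left out. It was 360 without the first GFP shRNA library, 291 without NFkB shRNA 2 replicate 2 and 243 without NFkB shRNA 1 replicate 2. Without a GFP or NF-kB shRNA library fewer libraries had to be separated, and why the number differed between the libraries left out was not tested. In 2'3'-cGAMP polyps the 58 genes higher and 22 lower (beside 28.5% and 30% of all tested genes) became 22 and 69 with equal library totals (beside 11.5% and 61%). When single polyp libraries were left out, the median over the NF-kB-supported genes stayed above the median of all tested genes. With equal totals NCBI Gene 5499660 (-0.75), LOC5519398 (-0.29), LOC5520818 (-1.03) and NCBI Gene 116618456 (-0.52) turned negative. NCBI Gene 5499660 ran from -0.88 to 1.59 when single polyp libraries were left out, with -0.88 without the second untreated library and -0.21 without the second 2'3'-cGAMP library. Leaving out single libraries gave 0 to 10 called genes for STING against GFP shRNA, 0 to 3 for the difference in response, 0 to 10 between the NF-kB hairpins and 0 to 1 for each of the 3 pairs among 3'3'-cGAMP, c-di-AMP and c-di-GMP. With a fit of 1 library in a group, that library is assumed to vary like the other groups.

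The replicate number as a block changed the number called in no comparison by over 1.5 times. Same-numbered libraries share only a number, and the correlation of their deviations ran from -0.099 to 0.068 in polyps, was -0.01 between the NF-kB hairpins and ran from 0.026 to 0.28 among untreated embryos of the STING experiment. No paired analysis was possible for the difference in response because the labels number the treated GFP shRNA libraries 4 and 5 and name no other pairing. Leaving out the 2 GFP shRNA libraries with most genes at 0, an alternative chosen after seeing the data, kept 0 called genes for STING shRNAs and for the difference in response. The other alternatives left each count of called genes within 1.5 times.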

Other observations

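The 133 genes found in the reference could be placed in its gene order (assembly jaNemVect1.1, used only for which genes neighbour each other). LOC5515777 and LOC5515778 were direct neighbours, with NF-kB differences of -1.75 and -1.31. A further 3 pairs had 1 or 2 protein-coding genes between them: LOC5517408 with LOC5517479, LOC5504830 with LOC116612444, and LOC5508482 with LOC5508492. How many such pairs other sets of 133 genes would hold was not counted, so no clustering is read from these pairs.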
